A study of Mus musculus with 12 samples.

Results

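The p53 gene list examined here held 32 mouse genes: Trp53, the gene of p53 itself, 5 regulators of p53 activity, and 26 target genes that act in cell cycle arrest and growth, apoptosis, DNA repair or metabolism. Members were taken as the loci whose gene name equalled a listed symbol, and 33 of the 27914 loci in each expression table matched, because Zmat3 had 2 loci with the same bounds. Poly(A)-selected RNA was sequenced in 12 libraries, 4 groups of 3, and each locus was given in FPKM, a fragment count scaled by transcript length and by library size. The study compared the passage from naive embryonic stem cells (ESC) to primed epiblast-like cells (EpiLC) with the effects of losing the deacetylase Sirt1 and of knocking down the transcription factor Otx2.

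All groups came from the strain C57 Bl/6J. Wild-type ESC were kept on gelatin in serum-free N2B27 medium with LIF, the MEK inhibitor PD0325901 at 1 µM and the GSK3 inhibitor CHIR99021 at 3 µM. EpiLC were wild-type cells moved to fibronectin for 48 hours with Fgf2 at 12 ng/ml, Activin A at 20 ng/ml and 1% KOSR. The group labelled Sirt1KO consisted of ESC with a Sirt1 knockout by their label, and the group labelled Sirt1KO, Otx2KD (Sirt1KO Otx2KD below) combined that knockout with the Otx2 knockdown. Both of these groups were kept with PD0325901 at 1 µM and CHIR99021 at 3 µM, as wild-type ESC were. The labels state neither which part of Sirt1 was deleted, nor how Otx2 was knocked down, nor how many clones were used. There was no Otx2 knockdown in Sirt1-intact cells and no library from a control knockdown, so the knockdown was compared within the Sirt1 knockout alone. The labels also do not say that the 3 libraries of a group were separate cultures, so the p-values measure the spread between these libraries, which may be technical.

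p53 is a transcription factor that is held low by the ubiquitin ligase Mdm2 and its partner Mdm4 and is stabilised after DNA damage and other stress. It then induces genes that stop the cell cycle, above all Cdkn1a, the gene of the cyclin-dependent kinase inhibitor p21, and genes that start apoptosis or repair DNA, together with Mdm2, its own inhibitor. Sirt1 is known to remove acetyl groups from p53 protein, and p53 is known in mouse ESC for responses that bear on the exit from self-renewal. The libraries measure RNA only, so the amount and acetylation of p53 protein were not measured.

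The promoters of the list are shown first because p53 acts through a short DNA element. In RefSeq promoter windows of GRCm38.p6, each 300 bases long with 250 bases before and 50 after a start, 24 of the 32 members had a window. Those without one were Ddb2, Perp, Pmaip1, Rrm2b, Tnfrsf10b, Trp53inp1, Xpc and Zmat3. The p53 decamer, a 10-base pattern with 3 purines, C, a pair of A or T, G and 3 pyrimidines, equals its own reverse complement, so 1 search covered both strands. It matched in 12 of the 24 members (50%) against 9.55% of all genes with a window, and in 13 of 32 member windows (40.6%) against 8.36% of all 32851 windows. Most members were listed because they are p53 targets, so a larger share than among all genes may follow from how the list was made. Cdkn1a alone among the members held 2 decamers at most 13 bases apart, as did 24 of all windows (0.0731%). The 250 bases before the Cdkn1a start (chr17:29090729-29090978, plus strand) carry both, in capitals:
Cdkn1a upstream: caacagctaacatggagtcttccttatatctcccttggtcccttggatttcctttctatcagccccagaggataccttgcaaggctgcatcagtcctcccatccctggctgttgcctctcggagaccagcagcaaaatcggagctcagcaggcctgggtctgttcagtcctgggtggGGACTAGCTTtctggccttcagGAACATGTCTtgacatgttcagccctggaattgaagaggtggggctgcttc
The following 30-base stretches are read 5′ to 3′ on the strand of the gene, with the decamer in capitals. They belong to some members whose RNA the later results turn on, or whose adjoining 10 bases depart from the pattern at 1 position. The decamers lie at chr17:29090928-29090937 for Cdkn1a, chr11:40755462-40755471 for Ccng1, chr15:85859955-85859964 for Gtse1, chr10:117710935-117710944 for Mdm2, chr7:78895937-78895946 for Aen, chr7:45467090-45467099 for Bax and chr11:69580284-69580293 for Trp53. Mdm2, Ccng1 and Bax lie on the minus strand and the others on the plus strand.
Cdkn1a: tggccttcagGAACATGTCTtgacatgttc
Ccng1: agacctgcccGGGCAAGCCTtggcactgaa
Gtse1: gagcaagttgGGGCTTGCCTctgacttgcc
Mdm2: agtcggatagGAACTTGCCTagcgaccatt
Aen: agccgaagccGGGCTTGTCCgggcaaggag
Bax: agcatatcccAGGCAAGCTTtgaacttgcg
Trp53: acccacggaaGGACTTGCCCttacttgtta
In Cdkn1a, Ccng1 and Gtse1 the 10 bases on one side of the decamer departed from the pattern at 1 position, a closeness reached in 29 of all windows (0.0883%). The other members with a match were Ckap2, Sesn1, Ddit4l, Ei24 and Polk. In Ckap2, whose stretch is not printed, the 10 bases after the decamer departed at 2 positions. At most 2 departures were found in 138 of all windows (0.42%). A match describes these letters and does not show that p53 binds there, and the absence of a match says only that the letters are not in the window.

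All 33 loci passed the filter of at least 1 FPKM in at least 3 libraries and were tested among 12320 named loci. Fas passed through the 3 Sirt1KO Otx2KD libraries alone, so that a difference involving that group was built into its passing. The second Zmat3 locus is left out of the counts. Changes below are differences of log2(FPKM + 1), a scale that understates changes of weakly expressed genes, with their standard error from limma. A call is a Benjamini-Hochberg adjusted p under 0.05 over all loci tested. Sirt1 RNA stood at 25.8 ± 0.412 FPKM (SD, n = 3) in wild-type ESC and 33.2 ± 1.24 in EpiLC, and at 15.5 ± 0.196 and 15.6 ± 0.492 in Sirt1KO and Sirt1KO Otx2KD. Sirt1 RNA thus remained in both groups labelled as knockouts, and these values neither show nor exclude a loss of the protein. Otx2 stood at 7.38 ± 0.458, 100.2 ± 3.45, 27.0 ± 6.36 and 6.07 ± 0.401 FPKM in the same order. The summed FPKM of 5 EpiLC markers ran from 30.2 to 34.6 in wild-type ESC, 834 to 865 in EpiLC, 205 to 297 in Sirt1KO and 45.2 to 47.7 in Sirt1KO Otx2KD. The summed FPKM of 8 fibroblast markers ran from 105 to 126, 60.6 to 62.4, 10.9 to 14.5 and 235 to 237, with no marker at 0 in any group mean. In bulk RNA, fewer cells of a type and less RNA per cell cannot be told apart.

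Members were mostly well expressed. Their median in wild-type ESC was 21.4 FPKM against 11.3 over all loci tested. Bax and Trp53 led at 268 ± 7.32 and 267 ± 8.8 FPKM (SD, n = 3) and did not differ beyond their spread. Ccng1 followed at 175 ± 9.77, Cdkn1a at 146 ± 4.52 and Mdm2 at 91.0 ± 2.91 FPKM. Fas at 0.686 ± 0.191, Ptpn14 at 3.78 ± 0.516 and Ddit4l at 4.61 ± 0.341 FPKM were the lowest.

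The list did not move in 1 direction in EpiLC or Sirt1KO. In EpiLC against wild-type ESC, 17 members were higher, 12 lower and 3 were not called, where 35.8% of all loci tested were called higher, 38.8% lower and 74.6% in either direction. In Sirt1KO against wild-type ESC, 14 were higher, 13 lower, Fas included, and 5 not called, against 32.4%, 32.7% and 65.0% of all loci. The median change of the members was 0.19 in EpiLC and 0.00 in Sirt1KO on the log2 scale, against -0.02 and 0.01 over all loci. In Sirt1KO Otx2KD against Sirt1KO, 15 of the 31 members other than Fas were higher, 6 lower and 10 not called, against 31.1%, 31.5% and 62.6% of all loci. There the median of these 31 members was 0.17 and that of all loci -0.015. In Sirt1KO Otx2KD against wild-type ESC, 16 of the 31 were higher, 4 lower and 11 not called, against 27.1%, 26.8% and 53.9% of all loci, with a median of 0.17. These comparisons share libraries, so they are not independent of each other. Higher calls outnumbered lower calls by most in both comparisons with the Otx2 knockdown, where all loci were called about as often in either direction. Whether the comparisons differ in this was not tested. All 8 fibroblast markers were called higher in both as well, all 8 lower in Sirt1KO and 6 lower and 1 higher in EpiLC against wild-type ESC, and their part in these results was not tested.

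Changes of at least 1 log2 unit were about as frequent among the members as among all loci in EpiLC and Sirt1KO. In EpiLC against wild-type ESC, 2 members were called at least 1 log2 unit higher (Pmaip1 and Ptpn14) and 3 lower (Cdkn1a, Aen and Rrm2b), where 15.1% of all loci were called with such a change. In Sirt1KO the 2 were Pmaip1, higher, and Aen, lower, against 7.61% of loci. Pmaip1, lower, was the 1 member past that size in Sirt1KO Otx2KD against Sirt1KO, where 5.71% of loci were, and none was against wild-type ESC, where 3.24% were. Counted by libraries, 18 members had all 3 EpiLC values above and 13 all 3 below those of wild-type ESC, and 76.8% of all loci had no overlap there. In Sirt1KO 12 were above and 12 below without overlap, against 68.5% of loci. Of the 31 members other than Fas, Sirt1KO Otx2KD had 16 above and 7 below Sirt1KO, against 67.2% of loci, and 13 above and 4 below wild-type ESC, against 61.3%.

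**Figure D1:**
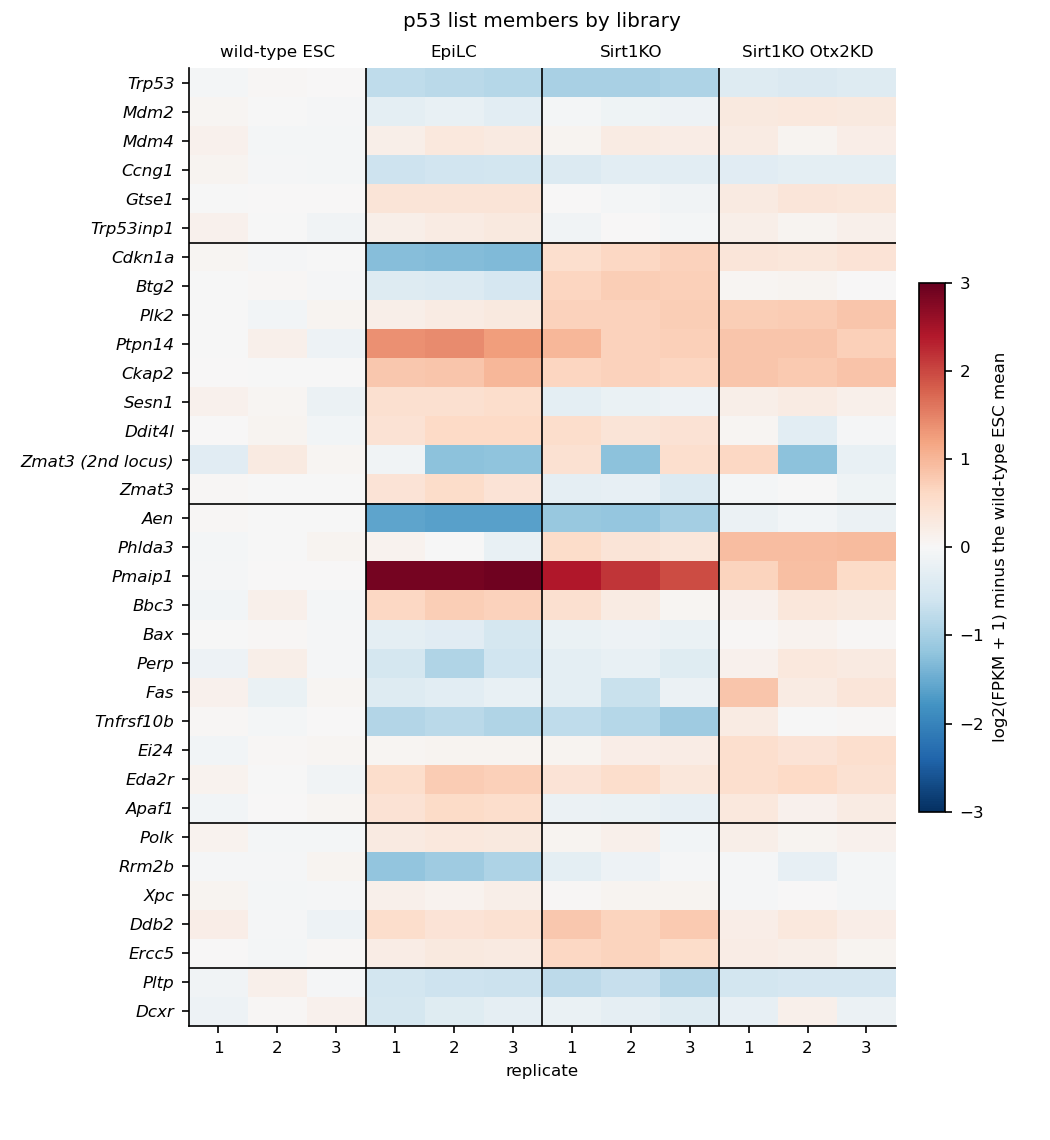
Each row is a member and each column a library, with the colour giving log2(FPKM + 1) minus the wild-type ESC mean of that member. Rows are ordered by role, and rows above and below wild-type ESC lie side by side among the regulators, the arrest genes and the apoptosis genes in EpiLC and Sirt1KO, with Pmaip1 and Aen the strongest in opposite directions.

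Among the regulators, Trp53 RNA was lower in every other group than in wild-type ESC. Trp53 (locus chr11:69393860-69405375 in the deposited mm9 coordinates) stood at 258, 276 and 268 FPKM in wild-type ESC replicates 1 to 3, at 158, 151 and 148 in EpiLC, at 136, 136 and 141 in Sirt1KO and at 205, 199 and 206 in Sirt1KO Otx2KD. No library of one group overlapped another group. Trp53 fell by 0.81 ± 0.03 (limma adjusted p = 5.39e-11) in EpiLC and by 0.95 ± 0.03 (adjusted p = 3.05e-11) in Sirt1KO, and was 0.56 ± 0.03 higher in Sirt1KO Otx2KD than in Sirt1KO (adjusted p = 8.16e-09). Chromosome 11 as a whole was shifted in the same contrasts. Against wild-type ESC, its 1038 other loci had a median change of -0.46 for EpiLC, -0.49 for Sirt1KO and -0.39 for Sirt1KO Otx2KD, but 0.07 for Sirt1KO Otx2KD against Sirt1KO. Trp53 lay at the 27.9th percentile of its chromosome in EpiLC, the 13.4th in Sirt1KO and the 49.6th in Sirt1KO Otx2KD. Its change of -0.39 ± 0.03 in Sirt1KO Otx2KD against wild-type ESC (adjusted p = 3.7e-07) equalled the chromosome median, and with chromosome medians removed it was 0.01 (adjusted p = 0.786). With the medians removed, Trp53 was still called lower in EpiLC (-0.33, adjusted p = 3.44e-07) and in Sirt1KO (-0.46, adjusted p = 2.15e-08), by less than before, and higher in Sirt1KO Otx2KD than in Sirt1KO (0.47, adjusted p = 2e-08).

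**Figure D2:**
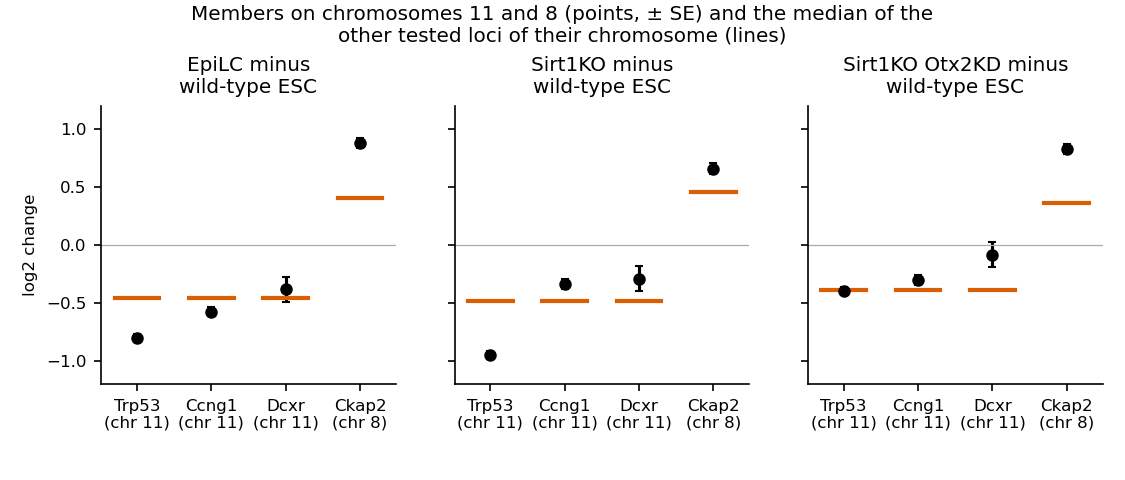
Points give the log2 change (± SE) of the members on chromosomes 11 and 8 in 3 comparisons with wild-type ESC, and lines give the median change of the other tested loci of the same chromosome. Trp53 lies below its line in EpiLC and Sirt1KO and on it in Sirt1KO Otx2KD, and Ckap2 lies above its line in all 3.

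Mdm2, the ligase that marks p53 for degradation (chr10:117125960-117147772), stood at 94.0, 90.7 and 88.2 FPKM in wild-type ESC, at 74.1, 77.7 and 73.4 in EpiLC, at 86.7, 83.4 and 81.3 in Sirt1KO and at 112, 114 and 112 in Sirt1KO Otx2KD. The 3 Sirt1KO Otx2KD libraries were above and the 3 EpiLC libraries below all others. Mdm2 fell by 0.28 ± 0.04 in EpiLC (adjusted p = 1.04e-05) and rose by 0.42 ± 0.04 in Sirt1KO Otx2KD against Sirt1KO (adjusted p = 3.03e-07) and by 0.30 ± 0.04 against wild-type ESC (adjusted p = 9.86e-06). Quantile normalization gave -0.16 in EpiLC. Its change of -0.12 ± 0.04 in Sirt1KO (adjusted p = 0.0121) lost its call without wild-type library 1 (adjusted p = 0.0519) or Sirt1KO library 3 (adjusted p = 0.0546).

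Mdm4, which binds and blocks the p53 activation domain, stood at 39.1, 33.8 and 33.9 FPKM in wild-type ESC, at 40.2, 44.7 and 43.1 in EpiLC, at 37.8, 42.2 and 41.9 in Sirt1KO and at 42.1, 37.8 and 40.9 in Sirt1KO Otx2KD. Wild-type library 1 overlapped both Sirt1KO groups. Mdm4 rose by 0.26 ± 0.07 in EpiLC (adjusted p = 0.0028). Its change of 0.19 in Sirt1KO (adjusted p = 0.0221) was no longer called without wild-type library 2 (adjusted p = 0.0884) or 3 (0.0854), or without Sirt1KO library 2 (0.0812) or 3 (0.0739). That call was also lost with chromosome medians removed (0.09, adjusted p = 0.243), where the other loci of chromosome 1 had a median of 0.099. The 0.17 in Sirt1KO Otx2KD against wild-type ESC (adjusted p = 0.0367) was likewise lost without wild-type library 2 (0.13) or 3 (0.126), or without Sirt1KO Otx2KD library 1 (0.128) or 3 (0.095).

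Ccng1, the gene of cyclin G1, which recruits a phosphatase to Mdm2, stood at 187, 170.5 and 169 FPKM in wild-type ESC, at 114, 117 and 120.0 in EpiLC, at 133, 141 and 141 in Sirt1KO and at 139, 142 and 144 in Sirt1KO Otx2KD. Wild-type ESC were above all other libraries, EpiLC were below them, and both Sirt1KO groups overlapped each other. Ccng1 fell by 0.58 ± 0.04 in EpiLC (adjusted p = 1.41e-08), by 0.34 ± 0.04 in Sirt1KO (adjusted p = 5.58e-06) and by 0.30 ± 0.04 in Sirt1KO Otx2KD against wild-type ESC (adjusted p = 2.67e-05). It lies on chromosome 11, and with the chromosome medians removed its change in EpiLC shrank to -0.10 (adjusted p = 0.0494), that in Sirt1KO turned to 0.15 (adjusted p = 0.00966) and that in Sirt1KO Otx2KD to 0.10 (adjusted p = 0.0727).

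Gtse1, whose protein restrains p53 in the G2 phase, ran from 83.1 to 84.5 FPKM in wild-type ESC, 109.6 to 111 in EpiLC, 78.0 to 84.4 in Sirt1KO and 101 to 108 in Sirt1KO Otx2KD. It rose by 0.39 ± 0.04 in EpiLC (adjusted p = 3.12e-07) and by 0.38 ± 0.04 in Sirt1KO Otx2KD against Sirt1KO (adjusted p = 9.16e-07), whereas Sirt1KO overlapped wild-type ESC (-0.05 ± 0.04, adjusted p = 0.231). Trp53inp1, which promotes p53 phosphorylation, ran from 81.8 to 96.2, 99.5 to 108, 81.3 to 88.5 and 93.0 to 99.5 FPKM in the same order of groups. It rose by 0.24 ± 0.06 in EpiLC (adjusted p = 0.00145) and by 0.19 ± 0.06 in Sirt1KO Otx2KD against Sirt1KO (adjusted p = 0.00868). In all, 4 of 6 regulators rose and none fell by a call in Sirt1KO Otx2KD against Sirt1KO, where 31.1% of all loci rose and 31.5% fell. In EpiLC 3 rose and 3 fell, against 35.8% and 38.8%, and in Sirt1KO 1 rose and 3 fell, against 32.4% and 32.7%.

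Among the arrest and growth genes, Cdkn1a and Btg2 moved in opposite directions in EpiLC and Sirt1KO. Cdkn1a (chr17:29227919-29237672), which encodes p21, stood at 152, 143 and 144 FPKM in wild-type ESC, at 60.2, 59.1 and 58.4 in EpiLC, at 208, 225 and 238 in Sirt1KO and at 189, 186 and 194 in Sirt1KO Otx2KD. The order from EpiLC through wild-type ESC and Sirt1KO Otx2KD to Sirt1KO held in every library, with no overlap. Cdkn1a fell by 1.29 ± 0.04 in EpiLC (adjusted p = 6.57e-12) and rose by 0.60 ± 0.04 in Sirt1KO (adjusted p = 3.17e-08). It fell by 0.23 ± 0.04 in Sirt1KO Otx2KD against Sirt1KO (adjusted p = 0.000372) and stayed 0.37 ± 0.04 above wild-type ESC (adjusted p = 8.09e-06). EpiLC lay 3.72-fold below Sirt1KO on the log2(FPKM + 1) scale (log2 change -1.90 ± 0.04, adjusted p = 4.76e-13).

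Btg2, whose protein slows proliferation through deadenylation of mRNA, stood at 29.7, 31.0 and 29.3 FPKM in wild-type ESC, at 22.7, 22.5 and 20.9 in EpiLC, at 47.8, 50.6 and 50.1 in Sirt1KO and at 31.3, 31.8 and 30.3 in Sirt1KO Otx2KD. EpiLC were the lowest and Sirt1KO the highest libraries without overlap, and Sirt1KO Otx2KD overlapped wild-type ESC. Btg2 fell by 0.43 ± 0.04 in EpiLC (adjusted p = 6.69e-07), rose by 0.70 ± 0.04 in Sirt1KO (adjusted p = 6.99e-09) and fell by 0.65 ± 0.04 in Sirt1KO Otx2KD against Sirt1KO (adjusted p = 2.28e-08). Between Sirt1KO Otx2KD and wild-type ESC the difference was 0.05 ± 0.04 (adjusted p = 0.355).

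Ptpn14, a phosphatase that restrains Yap, a transcriptional coactivator of the Hippo pathway, stood at 3.73, 4.32 and 3.30 FPKM in wild-type ESC, at 11.4, 11.8 and 10.4 in EpiLC, at 8.46, 6.75 and 6.88 in Sirt1KO and at 7.48, 7.43 and 6.86 in Sirt1KO Otx2KD. All 9 other libraries were above the wild-type ESC, and the EpiLC were the highest. Ptpn14 rose by 1.35 ± 0.09 in EpiLC (adjusted p = 9.75e-09), by 0.81 ± 0.09 in Sirt1KO (adjusted p = 3.57e-06) and by 0.79 ± 0.09 in Sirt1KO Otx2KD against wild-type ESC (adjusted p = 7.59e-06).

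The polo-like kinase gene Plk2 ran from 20.6 to 23.4 FPKM in wild-type ESC, 24.8 to 26.8 in EpiLC, 35.6 to 37.3 in Sirt1KO and 37.4 to 39.7 in Sirt1KO Otx2KD. It rose by 0.24 ± 0.05 in EpiLC (adjusted p = 0.000755), by 0.70 ± 0.05 in Sirt1KO (adjusted p = 2.91e-08) and by 0.78 ± 0.05 in Sirt1KO Otx2KD against wild-type ESC (adjusted p = 2.6e-08). Ckap2, a spindle microtubule protein gene on chromosome 8, rose by 0.88 ± 0.04, 0.66 ± 0.04 and 0.82 ± 0.04 in the same contrasts (adjusted p = 3.97e-10, 1.53e-08 and 4.7e-09). The other 679 loci of chromosome 8 had medians of 0.40, 0.46 and 0.36 there, and with chromosome medians removed Ckap2 was still called higher, by 0.48 (adjusted p = 3.5e-07), 0.20 (adjusted p = 0.00193) and 0.44 (adjusted p = 3.17e-06).

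Sesn1, Ddit4l and Zmat3 all rose in EpiLC, where Cdkn1a fell. Sesn1, a leucine-sensing inhibitor of the growth kinase complex mTORC1, rose by 0.50 ± 0.07 in EpiLC (9.43 to 11.7 FPKM in wild-type ESC, 15.3 to 16.0 in EpiLC, adjusted p = 2.2e-05) and by 0.40 ± 0.07 in Sirt1KO Otx2KD against Sirt1KO (adjusted p = 0.000252). Its change of -0.21 ± 0.07 in Sirt1KO (adjusted p = 0.0178) lost its call without wild-type library 1 (adjusted p = 0.0857) or 2 (0.0631) or Sirt1KO library 1 (0.0721). Its 0.19 in Sirt1KO Otx2KD against wild-type ESC (adjusted p = 0.0398) lost its call without wild-type library 3 (0.198), EpiLC library 2 (0.0503), or Sirt1KO Otx2KD library 1 (0.0687) or 2 (0.128). Ddit4l, also an inhibitor of mTORC1, rose by 0.54 ± 0.09 in EpiLC (adjusted p = 0.000115) and by 0.45 ± 0.09 in Sirt1KO (adjusted p = 0.000729) and fell by 0.54 ± 0.09 in Sirt1KO Otx2KD against Sirt1KO (adjusted p = 0.000163). Zmat3, an RNA-binding zinc finger gene, ran from 20.6 to 21.3 FPKM in wild-type ESC, 28.1 to 30.9 in EpiLC and 15.3 to 17.5 in Sirt1KO at its main locus. The bounds of that locus are shared by 3 loci in all, so their fragments may not be fully separated. Zmat3 rose by 0.46 ± 0.06 in EpiLC (adjusted p = 5.02e-06) and fell by 0.31 ± 0.06 in Sirt1KO (adjusted p = 0.000249). Of the 8 arrest and growth genes, 6 rose and 2 fell in EpiLC, against 35.8% and 38.8% of all loci, and 6 rose and 2 fell in Sirt1KO, against 32.4% and 32.7%. The 2 that fell in EpiLC were Cdkn1a and Btg2, and those 2 rose in Sirt1KO, where Sesn1 and Zmat3 were called lower. In Sirt1KO Otx2KD against Sirt1KO, 3 rose, 3 fell and 2 were not called, against 31.1% of all loci higher and 31.5% lower.

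**Figure D3:**
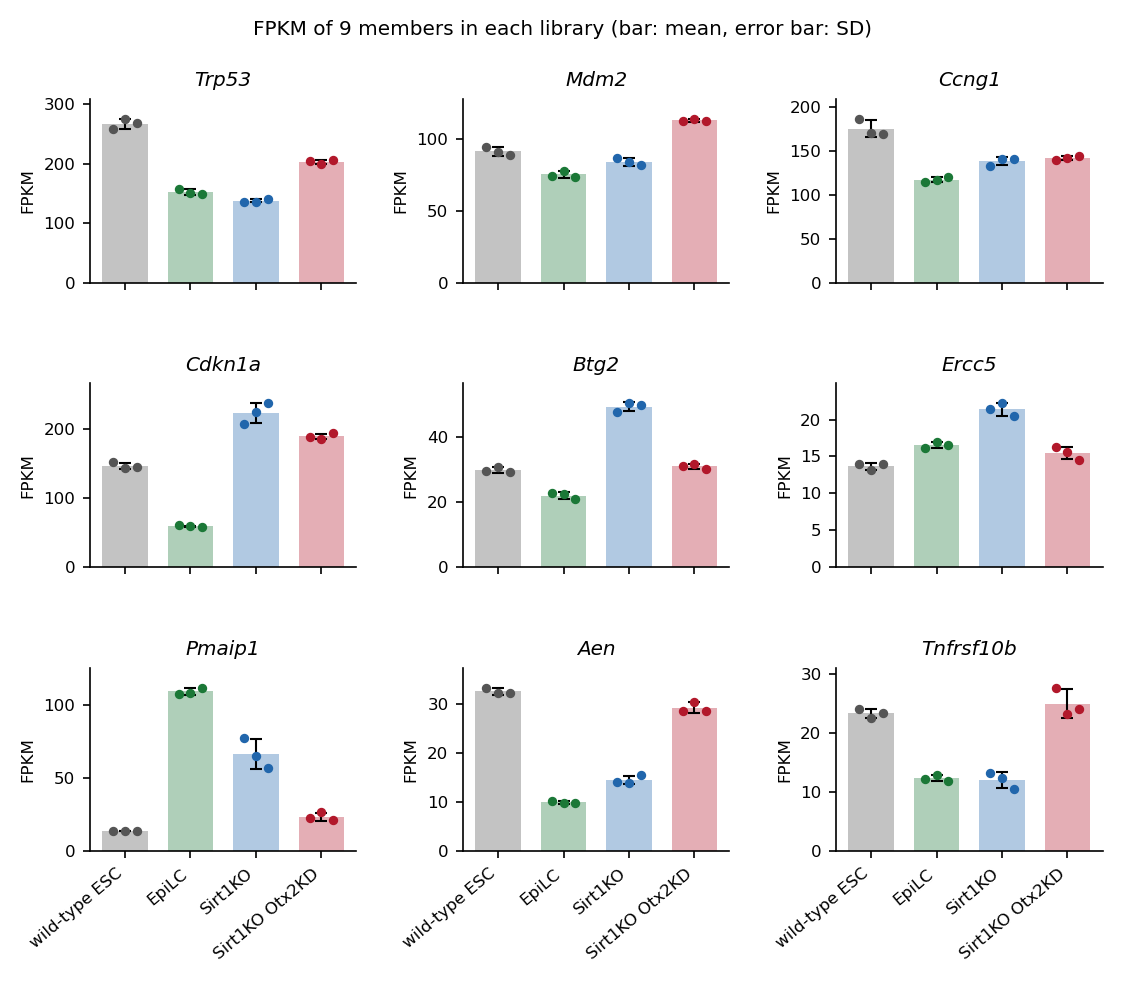
FPKM of 9 members, with a point for each library, a bar for the mean of 3 libraries and an error bar for the SD. Cdkn1a is lowest in EpiLC and highest in Sirt1KO, Pmaip1 is highest in EpiLC at 108 to 112 FPKM, and Aen and Tnfrsf10b are low in EpiLC and Sirt1KO only.

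The apoptosis genes were divided, and in EpiLC, in Sirt1KO and after the Otx2 knockdown within Sirt1KO the member with the largest change was Pmaip1. Pmaip1, which encodes the proapoptotic Bcl2 family protein Noxa (chr18:66618257-66625212), stood at 13.6, 14.2 and 14.0 FPKM in wild-type ESC, at 108, 109 and 112 in EpiLC, at 77.6, 65.3 and 57.2 in Sirt1KO and at 22.8, 26.7 and 21.2 in Sirt1KO Otx2KD. No groups overlapped. Pmaip1 rose by 2.89 ± 0.10 in EpiLC, or 7.4-fold (adjusted p = 4.04e-11), and by 2.17 ± 0.10 in Sirt1KO, or 4.5-fold (adjusted p = 1.21e-09). In Sirt1KO Otx2KD it fell by 1.46 ± 0.10 against Sirt1KO (adjusted p = 6.63e-08) and stayed 0.71 ± 0.10 above wild-type ESC (adjusted p = 5.12e-05).

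Aen, a nuclease gene induced by p53 in apoptosis, stood at 33.3, 32.2 and 32.1 FPKM in wild-type ESC, at 10.3, 9.80 and 9.80 in EpiLC, at 14.2, 13.9 and 15.5 in Sirt1KO and at 28.6, 30.5 and 28.6 in Sirt1KO Otx2KD. Wild-type ESC were highest and EpiLC lowest, with no overlap between groups. Aen fell by 1.61 ± 0.05 in EpiLC (adjusted p = 2.76e-12) and by 1.11 ± 0.05 in Sirt1KO (adjusted p = 2.55e-10) and rose by 0.96 ± 0.05 in Sirt1KO Otx2KD against Sirt1KO (adjusted p = 1.8e-09). The remaining difference to wild-type ESC, -0.15 ± 0.05 (adjusted p = 0.0189), lost its call without wild-type library 1 (adjusted p = 0.0622) or Sirt1KO Otx2KD library 1 (0.0671) or 3 (0.066).

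Tnfrsf10b, which encodes the death receptor for the ligand Trail, was low in the same 2 groups: 22.4 to 24.0 FPKM in wild-type ESC, 11.9 to 12.9 in EpiLC, 10.6 to 13.2 in Sirt1KO and 23.2 to 27.7 in Sirt1KO Otx2KD. It fell by 0.87 ± 0.08 in EpiLC (adjusted p = 1.5e-07) and by 0.90 ± 0.08 in Sirt1KO (adjusted p = 1.72e-07) and rose by 0.99 ± 0.08 in Sirt1KO Otx2KD against Sirt1KO (adjusted p = 9.2e-08). Its difference between Sirt1KO Otx2KD and wild-type ESC was 0.09 ± 0.08 (adjusted p = 0.325) and that between EpiLC and Sirt1KO 0.04 ± 0.08 (adjusted p = 0.698).

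Bax, the pore-forming effector of mitochondrial apoptosis, stood at 268, 276 and 261 FPKM in wild-type ESC, at 219, 211 and 186 in EpiLC, at 234, 239.8 and 234 in Sirt1KO and at 274, 289 and 275 in Sirt1KO Otx2KD. EpiLC and Sirt1KO were below every wild-type ESC library, and Sirt1KO Otx2KD overlapped wild-type ESC. Bax fell by 0.39 ± 0.05 in EpiLC (adjusted p = 5.4e-06) and by 0.18 ± 0.05 in Sirt1KO (adjusted p = 0.00408) and rose by 0.24 ± 0.05 in Sirt1KO Otx2KD against Sirt1KO (adjusted p = 0.000632). Quantile normalization gave -0.25 in EpiLC.

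Fas, the death receptor of the tumour necrosis factor receptor family, was weakly expressed at 0.830, 0.469 and 0.759 FPKM in wild-type ESC, at 0.286, 0.346 and 0.434 in EpiLC, at 0.368, 0.0644 and 0.485 in Sirt1KO and at 1.97, 1.00 and 1.14 in Sirt1KO Otx2KD. The 3 Sirt1KO Otx2KD libraries were above all others, which is also how Fas passed the filter, so this difference is given as values alone. Fas is left out of the counts for that group, apart from those marked as including Fas where the dependence on processing is described. Its change of -0.38 ± 0.16 in Sirt1KO (adjusted p = 0.0491) lost its call when any of 8 libraries was left out: wild-type ESC 1 (adjusted p = 0.146) or 3 (0.121), EpiLC 1 (0.0584), 2 (0.0602) or 3 (0.0566), Sirt1KO 1 (0.0611) or 2 (0.221), or Sirt1KO Otx2KD 3 (0.0541). With a pseudocount of 0.1 in place of 1 that change was -1.11.

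Phlda3, an inhibitor of the survival kinase Akt, ran from 35.3 to 39.1 FPKM in wild-type ESC, 31.6 to 40.3 in EpiLC, 46.9 to 54.5 in Sirt1KO and 70.9 to 72.3 in Sirt1KO Otx2KD. EpiLC overlapped wild-type ESC (-0.04 ± 0.08, adjusted p = 0.609). Phlda3 rose by 0.42 ± 0.08 in Sirt1KO (adjusted p = 0.000238) and by a further 0.51 ± 0.08 in Sirt1KO Otx2KD (adjusted p = 5.64e-05), to 0.93 ± 0.08 above wild-type ESC (adjusted p = 2.9e-07).

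Bbc3, which encodes the Bcl2 family protein Puma, ran from 13.6 to 16.3 FPKM in wild-type ESC, 23.1 to 24.9 in EpiLC, 15.1 to 20.7 in Sirt1KO and 16.0 to 18.8 in Sirt1KO Otx2KD, and rose by 0.69 ± 0.10 in EpiLC (adjusted p = 2.41e-05). Its 0.26 in Sirt1KO (adjusted p = 0.03) lost its call without wild-type library 1 (adjusted p = 0.106) or 3 (0.0944) or Sirt1KO library 1 (0.146) or 2 (0.0626). The 0.26 in Sirt1KO Otx2KD against wild-type ESC (adjusted p = 0.0407) lost its call without wild-type library 1 (0.136) or 3 (0.118), EpiLC library 2 (0.0505) or 3 (0.0523), Sirt1KO library 2 (0.0533), or Sirt1KO Otx2KD library 2 (0.135) or 3 (0.101).

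Perp, a membrane protein gene of cell junctions, fell by 0.67 ± 0.10 in EpiLC (13.6 to 17.3 FPKM in wild-type ESC, 7.64 to 10.2 in EpiLC, adjusted p = 2.91e-05) and rose by 0.53 ± 0.10 in Sirt1KO Otx2KD against Sirt1KO (adjusted p = 0.000372). In Sirt1KO its change of -0.29 ± 0.10 (adjusted p = 0.0184) lost its call without wild-type library 2 (adjusted p = 0.0946) or Sirt1KO library 3 (0.0636). Apaf1, the scaffold of the apoptosome, rose by 0.51 ± 0.06 in EpiLC (adjusted p = 4.05e-06), fell by 0.20 ± 0.06 in Sirt1KO (adjusted p = 0.0112) and rose by 0.43 ± 0.06 in Sirt1KO Otx2KD against Sirt1KO (adjusted p = 3.69e-05). Eda2r, a receptor of the ligand ectodysplasin A2, rose by 0.67 ± 0.08 in EpiLC (adjusted p = 2.27e-06) and by 0.42 ± 0.08 in Sirt1KO (adjusted p = 0.000287).

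Ei24, an endoplasmic reticulum protein gene, rose by 0.17 ± 0.05 in Sirt1KO (adjusted p = 0.00528) and by 0.31 ± 0.05 in Sirt1KO Otx2KD against Sirt1KO (adjusted p = 5.51e-05). Of the 11 apoptosis genes, 4 rose and 4 fell in EpiLC, and 5 rose and 6 fell in Sirt1KO, Fas among the latter, against 35.8% and 38.8% of all loci and 32.4% and 32.7%. Of the 10 without Fas, 7 rose and 1, Pmaip1, fell in Sirt1KO Otx2KD against Sirt1KO, against 31.1% and 31.5% of all loci. All 8 fibroblast markers were also called higher in that last comparison, with summed FPKM of 10.9 to 14.5 in Sirt1KO and 235 to 237 in Sirt1KO Otx2KD, and their part in the result was not tested.

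Among the 5 repair genes, the largest called changes against wild-type ESC were those of Rrm2b in EpiLC and of Ddb2 and Ercc5 in Sirt1KO. Rrm2b, a ribonucleotide reductase subunit that supplies nucleotides for repair, stood at 5.62, 5.65 and 6.17 FPKM in wild-type ESC, at 1.98, 2.27 and 2.56 in EpiLC, at 4.58, 5.08 and 5.60 in Sirt1KO and at 5.69, 4.79 and 5.53 in Sirt1KO Otx2KD. EpiLC were below all other libraries, and both Sirt1KO groups overlapped each other. Rrm2b fell by 1.06 ± 0.09 in EpiLC (adjusted p = 9.28e-08) and differed by -0.16 ± 0.09 in Sirt1KO (adjusted p = 0.123).

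Ercc5, a nuclease of nucleotide excision repair, ran from 13.1 to 14.0 FPKM in wild-type ESC, 16.1 to 16.9 in EpiLC, 20.5 to 22.2 in Sirt1KO and 14.6 to 16.2 in Sirt1KO Otx2KD. It rose by 0.26 ± 0.05 in EpiLC (adjusted p = 0.000456) and by 0.61 ± 0.05 in Sirt1KO (adjusted p = 1.85e-07) and fell by 0.44 ± 0.05 in Sirt1KO Otx2KD against Sirt1KO (adjusted p = 5.65e-06). Ddb2, which recognises ultraviolet damage, rose by 0.47 ± 0.08 in EpiLC (adjusted p = 0.000142) and by 0.76 ± 0.08 in Sirt1KO (adjusted p = 2.02e-06) and fell by 0.52 ± 0.08 in Sirt1KO Otx2KD against Sirt1KO (adjusted p = 8.06e-05). Its locus shares bounds with Acp2, so fragments of the neighbours may not be fully separated. Against wild-type ESC, the call of Ercc5 in Sirt1KO Otx2KD (0.16, adjusted p = 0.0167) was lost without wild-type library 2 (adjusted p = 0.0679) or Sirt1KO Otx2KD library 1 (0.0781). That of Ddb2 (0.23, adjusted p = 0.0292) was lost without wild-type library 2 (0.0804) or 3 (0.139) or Sirt1KO Otx2KD library 2 (0.102).

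Polk, a translesion DNA polymerase gene, rose by 0.30 ± 0.06 in EpiLC (adjusted p = 0.000906) and was not called in any contrast of the Sirt1KO groups with wild-type ESC or with each other. Xpc, a damage sensor, lay within 11.7 to 13.9 FPKM in all 12 libraries, and its 0.14 in EpiLC (adjusted p = 0.0257) lost its call without wild-type library 2 (adjusted p = 0.11) or 3 (0.0759) or EpiLC library 1 (0.0631) or 3 (0.0727). Of the 5 repair genes, 4 rose and 1 fell in EpiLC (35.8% and 38.8% of all loci), 2 rose and 0 fell in Sirt1KO (32.4% and 32.7%), and 0 rose and 2 fell in Sirt1KO Otx2KD against Sirt1KO (31.1% and 31.5%).

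Both metabolic members were called lower in EpiLC and Sirt1KO than in wild-type ESC, where 38.8% and 32.7% of all loci were called lower. Pltp, a phospholipid transfer protein gene whose locus shares bounds with Ctsa and Neurl2, ran from 44.1 to 52.1 FPKM in wild-type ESC, 29.8 to 32.0 in EpiLC, 25.2 to 28.9 in Sirt1KO and 31.7 to 33.0 in Sirt1KO Otx2KD. It fell by 0.61 ± 0.06 (adjusted p = 7.61e-07), 0.79 ± 0.06 (adjusted p = 8.91e-08) and 0.52 ± 0.06 (adjusted p = 9.72e-06) against wild-type ESC. Dcxr, a carbonyl and sugar reductase gene on chromosome 11, had changes of -0.38 ± 0.11 in EpiLC (adjusted p = 0.00509) and -0.29 ± 0.11 in Sirt1KO (adjusted p = 0.0268). These were close to the chromosome medians of -0.46 and -0.49, and with the medians removed they became 0.09 (adjusted p = 0.443) and 0.20 (adjusted p = 0.121). The Sirt1KO call of Dcxr was also lost without wild-type library 2 (adjusted p = 0.0706) or 3 (0.11) or Sirt1KO library 2 (0.0545) or 3 (0.0982).

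**Figure D4:**
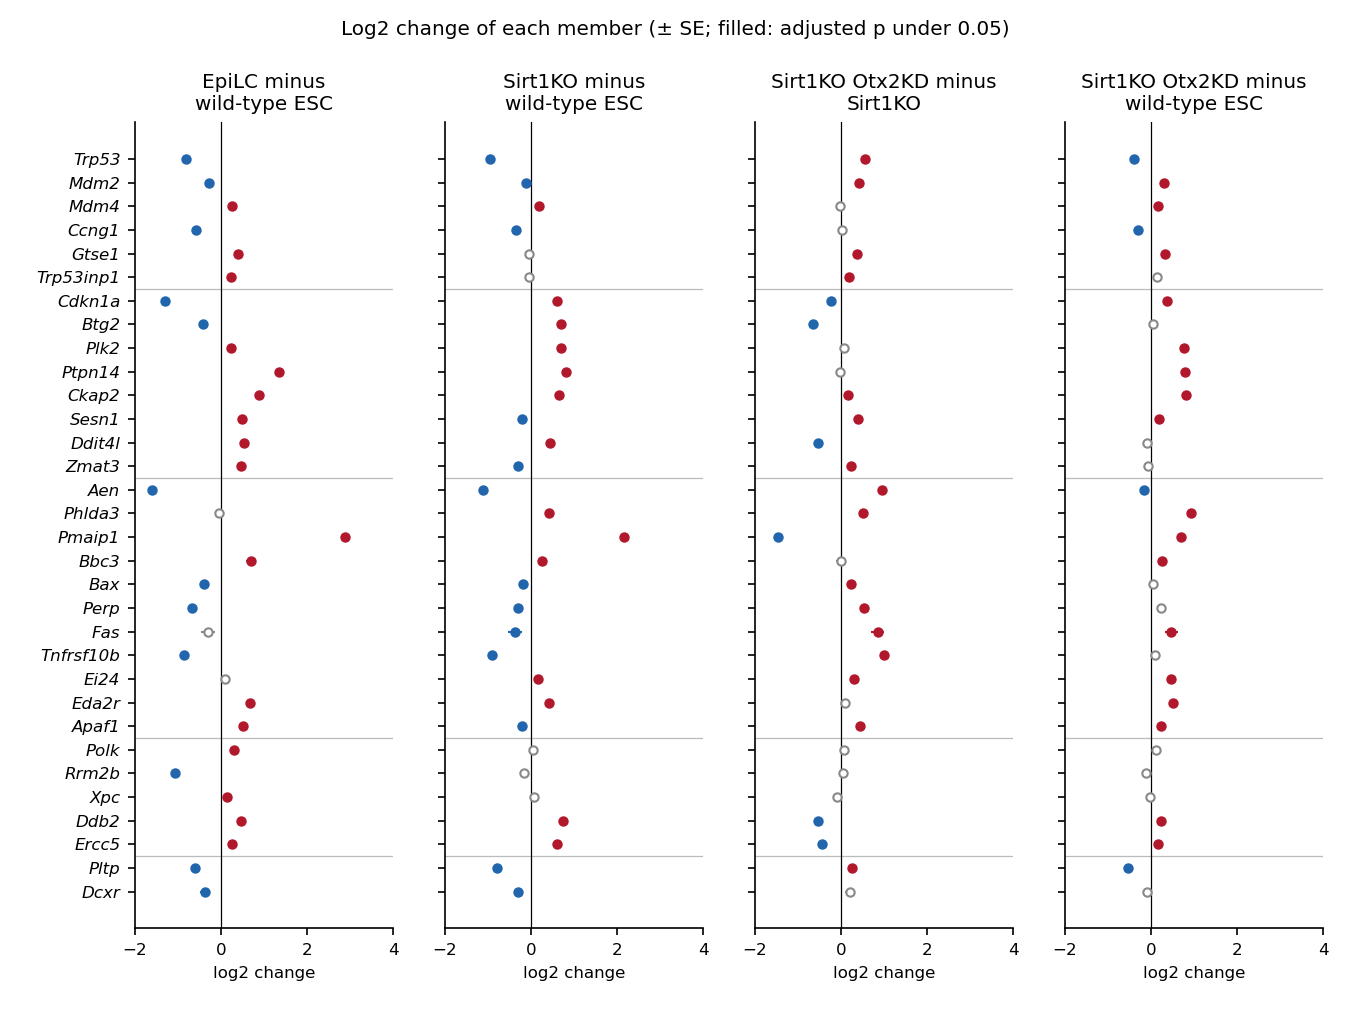
Log2 change of each member (point, with SE) in 4 comparisons, filled and coloured where the adjusted p was under 0.05, with grey lines between roles. Fas passed the filter through the Sirt1KO Otx2KD libraries alone, so its filled points for that group are not read as calls. Cdkn1a lies left of 0 in EpiLC and right of 0 in Sirt1KO, and Pmaip1 lies farthest right in EpiLC and Sirt1KO and farthest left in Sirt1KO Otx2KD against Sirt1KO.

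EpiLC and Sirt1KO were also compared directly. There 13 members were higher in EpiLC, 12 lower and 7 were not called, against 34.0%, 35.1% and 69.1% of all loci, and the members' median was 0.07 against -0.01. Without overlap of libraries, 14 were above and 12 below Sirt1KO, against 72.4% of loci. Called changes of at least 1 log2 unit were those of Cdkn1a and Btg2, 2 members, against 9.48% of loci. The lowest in EpiLC were Cdkn1a at -1.90 and Btg2 at -1.13 ± 0.04 (adjusted p = 5.34e-11), followed by Rrm2b at -0.90 ± 0.09 (adjusted p = 8.17e-07). The highest were Zmat3 at 0.77 ± 0.06 (adjusted p = 3.65e-08), Pmaip1 at 0.72 ± 0.10 (adjusted p = 2.68e-05), Sesn1 at 0.71 ± 0.07 (adjusted p = 8.69e-07) and Apaf1 at 0.71 ± 0.06 (adjusted p = 2.03e-07). Trp53 itself differed by 0.14 ± 0.03 (adjusted p = 0.00163), with the chromosome 11 median at 0.02. Pltp was 0.18 ± 0.06 higher (adjusted p = 0.0206), a call lost without EpiLC library 1 (adjusted p = 0.081) or Sirt1KO library 3 (0.0975).

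Other genes of the pathway were read from 3 further lists, to be set beside the shares of all loci called: 35.8% higher and 38.8% lower in EpiLC, 32.4% and 32.7% in Sirt1KO, 31.1% and 31.5% in Sirt1KO Otx2KD against Sirt1KO, 27.1% and 26.8% against wild-type ESC, and 34.0% and 35.1% in EpiLC against Sirt1KO. Of 22 tested p53 kinases, cofactors and ligases, 12 rose and 4 fell in EpiLC, 7 rose and 8 fell in Sirt1KO, and 10 rose and 7 fell in Sirt1KO Otx2KD against Sirt1KO. Against wild-type ESC, Sirt1KO Otx2KD had 9 higher and 8 lower, and EpiLC against Sirt1KO 10 higher and 2 lower. In Sirt1KO these shares are near those of all loci. Cdkn2a, whose Arf product blocks Mdm2, fell from 32.0 ± 1.99 FPKM (SD, n = 3) in wild-type ESC to 11.4 ± 1.28 in EpiLC (-1.42 ± 0.07, adjusted p = 4.62e-10). It rose by 0.81 ± 0.07 in Sirt1KO Otx2KD, at 58.3 ± 3.83 FPKM, against Sirt1KO (adjusted p = 3.82e-07). Usp10, a deubiquitinase of p53, rose by 0.59 ± 0.04 in that comparison (adjusted p = 4.47e-08), and the acetyltransferase gene Ep300 rose by 0.46 ± 0.05 (adjusted p = 4.08e-06). In Sirt1KO the damage kinase gene Chek2 fell by 0.42 ± 0.06 (adjusted p = 4e-05) and Trp53bp1 fell by 0.29 ± 0.04 (adjusted p = 3.58e-05).

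Of 22 further p53 targets tested, 7 rose and 10 fell in EpiLC, 7 rose and 8 fell in Sirt1KO, 10 rose and 6 fell in Sirt1KO Otx2KD against Sirt1KO, 8 rose and 6 fell against wild-type ESC, and 6 were higher and 11 lower in EpiLC than in Sirt1KO, with the shares in Sirt1KO again near those of all loci. Thbs1, a matrix glycoprotein gene, fell by 2.41 ± 0.10 in Sirt1KO (adjusted p = 8.97e-11) and rose by 2.27 ± 0.10 in Sirt1KO Otx2KD against Sirt1KO (adjusted p = 2.74e-10). The summed fibroblast markers, at 105 to 126 FPKM in wild-type ESC, 10.9 to 14.5 in Sirt1KO and 235 to 237 in Sirt1KO Otx2KD, moved in the same directions as Thbs1, and their part in its changes was not tested. Tigar, a regulator of glycolysis, fell by 1.37 ± 0.05 in EpiLC (adjusted p = 3.04e-11) and rose by 0.69 ± 0.05 in Sirt1KO Otx2KD against Sirt1KO (adjusted p = 9.66e-08). Sfn, the 14-3-3 sigma gene of G2 arrest, fell by 2.32 ± 0.10 in EpiLC (adjusted p = 1.7e-10), and Bid, a proapoptotic Bcl2 family gene, rose by 0.90 ± 0.04 in Sirt1KO (adjusted p = 4.51e-10).

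The third list held 24 cell cycle genes known to be repressed through p21 and the DREAM complex. In EpiLC 17 rose and 5 fell, against 35.8% and 38.8% of all loci. In Sirt1KO 12 rose and 6 fell, against 32.4% and 32.7%, and in Sirt1KO Otx2KD against Sirt1KO 9 rose and 12 fell. Sirt1KO Otx2KD against wild-type ESC had 10 higher and 9 lower, and EpiLC against Sirt1KO 17 higher and 5 lower. The spindle checkpoint gene Cdc20 rose by 1.01 ± 0.05 (adjusted p = 2.25e-10) and the cyclin gene Ccna2 by 0.63 ± 0.04 (adjusted p = 1.04e-09) in EpiLC. Mybl2, a cell cycle transcription factor gene, fell by 0.74 ± 0.04 in Sirt1KO (adjusted p = 1.25e-09). The helicase gene Mcm5, on chromosome 8, rose by 0.76 ± 0.03 in EpiLC (adjusted p = 5.65e-11) and 0.87 ± 0.03 in Sirt1KO (adjusted p = 3.8e-11), where that chromosome had medians of 0.40 and 0.46, and Aurkb, a mitotic kinase gene on chromosome 11, fell by 0.68 ± 0.05 in Sirt1KO (adjusted p = 1.32e-08), where that chromosome had a median of -0.49.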

How the data were processed

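Members and lists were chosen with earlier results of these data known. The authors deposited 1 table per library with FPKM for each locus; per the submitters' processing notes TopHat, Cufflinks, Cuffdiff and the build mm9 were used, with versions not given in the sources used here. Read depth is unknown; from the spacing of low values, relative depth ran from 0.767 to 1.33 times that of the first wild-type library. No pair of libraries was identical. Loci without a gene name (4778) were left out.

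Named loci with at least 1 FPKM in at least 3 of 12 libraries (12320) were fitted as log2(FPKM + 1) with limma 3.58.1 in R 4.3.3, with 1 mean per group, empirical Bayes with trend and robust settings and 8 residual degrees of freedom, and 5 contrasts were tested. The procedure was tested on simulated data. Adjusted p-values are Benjamini-Hochberg over all loci tested. Folds are back-transformed from log2(FPKM + 1) and include that pseudocount.

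All members are named, with values per library for Trp53, Cdkn1a, Mdm2, Mdm4, Ccng1, Bax, Fas and members called with changes of 1 log2 unit or more. Of each other pathway list, genes among the 3 with the largest absolute t in a comparison are named, and 1 gene that this rule would name is not reported here. Of 26 further targets 25 were matched (not Pidd1). Alternatives were the pseudocount, filter, scaling, chromosome medians, groups fitted, replicate block, unnamed loci, variance model and each library left out. Promoter windows came from RefSeq GRCm38.p6 by symbol, and no coordinates were carried between builds.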

Additional observations from a re-analysis of the deposited data

How the results depend on the processing

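No count of members called, Fas included, in a comparison moved by more than 1.5 times. Members higher in Sirt1KO Otx2KD than in wild-type ESC varied most, from 17 to 12 under the alternatives and from 13 to 18 with 1 library left out. Among values of single members that were called before or after a change of setting, 6 changed direction. All were on chromosome 11 with chromosome medians removed: Dcxr to 0.09 (EpiLC), 0.20 (Sirt1KO) and 0.32 (Sirt1KO Otx2KD) against wild-type ESC, Ccng1 to 0.15 in Sirt1KO and 0.10 in Sirt1KO Otx2KD, and Trp53 to 0.01 in Sirt1KO Otx2KD. That setting also ended 6 and added 8 other member calls without a change of direction. Values called under neither setting could change sign too, as Phlda3 did in EpiLC against wild-type ESC (-0.04 to 0.03 with quantile normalization). Leaving out a library ended 58 calls and added 10 among 1920 member values, called or not, and reversed no called value. Quantile normalization ended the calls of Bax and Mdm2 between EpiLC and Sirt1KO (adjusted p = 0.229 and 0.351). Replicate numbers showed no pairing through all groups: deviations of same-numbered libraries from 2 groups correlated at -0.107 to 0.17 over 18 pairs. The 2 pairs over 0.1 were replicates 2 and 3 of wild-type ESC and EpiLC (0.17 and 0.104). In 3 of the 18 pairs, those 2 included, both libraries correlated best with their own number in the other group. With a replicate block, 15 members were called higher in Sirt1KO Otx2KD than in wild-type ESC in place of 17 (Mdm4, adjusted p = 0.0581, and Sesn1, 0.0553, were lost), and no other member's call changed. Counting error could not be given, since the tables hold no counts, and 3 libraries a group limit the precision.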

Other observations

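The second Zmat3 locus, with the same bounds as the main one, was uneven within groups. It stood at 0.869, 1.87 and 1.45 FPKM in wild-type ESC, at 1.19, 0.00256 and 0.0213 in EpiLC, at 2.23, 0.00384 and 2.33 in Sirt1KO and at 2.61, 0.000847 and 1.02 in Sirt1KO Otx2KD. All groups overlapped, and limma called no difference in any of the 5 comparisons (adjusted p = 0.238 in EpiLC and 0.905 in Sirt1KO against wild-type ESC).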
